A study of Vitis vinifera with 4 samples.

Results

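The regions described are the MYBPA1 binding events on grapevine chromosomes chr02, chr15 and chr16, chosen by chromosome name alone, and they number 3641 of the 30318 events in the deposited list. Of these, 1249 lay on chr02, 1166 on chr15 and 1226 on chr16, and they made up 12.2% of the 29836 events on the 19 numbered chromosomes. The events came from DNA affinity purification sequencing (DAP-seq), an assay in which a tagged transcription factor is mixed with purified genomic DNA and the fragments it holds are sequenced. There were 2 MYBPA1 libraries and 2 pIX-HALO libraries, the latter with the tag and no transcription factor. Both groups used genomic DNA of young Pinot Noir leaves and HALO-tagged protein made in rabbit reticulocyte lysate. The DNA carries no chromatin, so an event is a place the protein can bind in vitro, and the list says nothing on binding in a leaf or berry cell. Only 1 list for MYBPA1 was examined, with no values per library, so the spread between libraries is unknown for every difference below.

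MYBPA1 is a MYB transcription factor, a family whose members bind DNA through paired MYB repeats, and it is known as an activator of proanthocyanidin (condensed tannin) genes in the grape berry. Its own gene is on chromosome 15, both by the gene identifiers in the labels and in the RefSeq gene table of assembly ASM3070453v1. The grapevine genome is palaeohexaploid, which means that an ancient triplication left most regions with related copies on other chromosomes. Large parts of chr02, chr15 and chr16 descend from the same ancestral chromosome. Such copies have since lost genes, gained repeats and been rearranged, so the chromosomes need not match in length or in order. Among genes of the phenylpropanoid and flavonoid pathways, chr02 is known for the berry colour locus with its MYBA regulators, and chr16 for the large family of stilbene synthase genes. No gene models or sequence of the build behind the coordinates were used here, so no event was given a gene, no event was matched to a related block, and no bases are shown.

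The first question was whether chromosomes of shared ancestry carry events at the same density. In this list they did not: chr02 was as densely covered as the rest of the genome, and chr15 and chr16 were sparser. Relative to its span, the distance between its outermost events, chr02 held 66.3 events per Mb (95% exact Poisson interval 62.7 to 70.1), over 18.8 Mb. Chr15 held 57.6 per Mb (54.3 to 61) over 20.2 Mb, and chr16 held 52.0 per Mb (49.2 to 55.0) over 23.6 Mb. The other 16 numbered chromosomes together held 66.3 per Mb (65.5 to 67.1), with single chromosomes between 49.1 on chr09 and 84.2 on chr08. The intervals are for counting error and treat events as independent, which events standing in close groups are not. Counts in windows of 1 Mb were also uneven, whereas independent, evenly spread events give a variance near the mean. Variance over mean was 11.7 on chr02, 10.2 on chr15, 10.1 on chr16 and 10.9 on the other 16. The intervals here, and those of density ratios and shares by position below, are therefore too narrow. Whether the differences exceed this unevenness was not tested. In order of density from the sparsest of the 19 chromosomes, chr16 stood at place 2, chr15 at place 4 and chr02 at place 11.

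Set against each other, chr02 had 1.27 times the density of chr16 (exact interval of the ratio 1.18 to 1.38) and 1.15 times that of chr15 (1.06 to 1.25). Chr15 had 1.11 times the density of chr16 (1.02 to 1.20). This last difference was within counting error among events with a −log10 q of at least 5 (1.05, 0.945 to 1.17) and in the strongest 50% of events (1.03, 0.912 to 1.15). Against the other 16 chromosomes the ratio was 0.999 for chr02 (0.943 to 1.06), 0.868 for chr15 (0.818 to 0.921) and 0.785 for chr16 (0.740 to 0.831). The 3 chromosomes together had 0.876 times the density of the other 16 (0.846 to 0.907). Among the other sets of related chromosomes, only chr06, chr08 and chr13 had a larger spread than the 1.27 found here. The densest over the sparsest chromosome was 1.42 for chr06, chr08 and chr13, 1.22 for chr03, chr04 and chr18, 1.17 for chr01, chr14 and chr17, and 1.09 for chr10, chr12 and chr19.

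**Figure D1:**
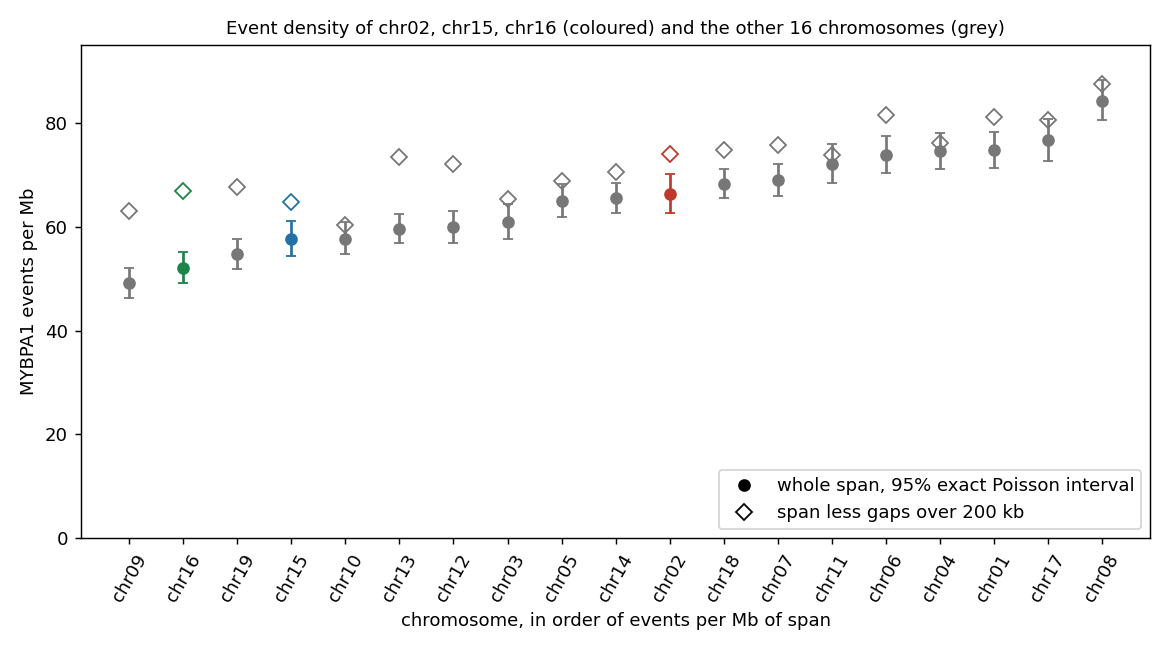
Events per Mb on each of the 19 numbered chromosomes, in order of density; filled points use the whole span with 95% exact Poisson intervals, and open diamonds leave out gaps over 200 kb between neighbouring events. Chr02 (66.3 per Mb), chr15 (57.6) and chr16 (52.0) are coloured; without such gaps chr15 and chr16 lie at 64.7 and 66.8 per Mb.

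The low density of chr16 went with long stretches that held no event. Of its 1225 gaps between neighbouring events, 13 were longer than 200 kb, and these covered 5.19 Mb or 22.04% of its span. Chr15 had 7 such gaps covering 11.0% of the span, and chr02 had 4 covering 10.4%. Over all numbered chromosomes 0.399% of gaps were this long, and among the other 16 their share of the span ran from 2.14% on chr04 to 22.1% on chr09. Once these gaps were left out of the span, chr02 had 73.9 events per Mb, chr15 had 64.7 and chr16 had 66.8, compared with 73.3 on the other 16 together. The order of chr15 and chr16 was then turned, with a ratio of 0.970 (0.894 to 1.05), and chr02 over chr16 fell to 1.11 (1.02 to 1.20). Gaps are stretches without events, so leaving them out raises density most, by construction, where they cover the largest share of the span. These values therefore cannot tell whether the gaps account for the low density. The sequence and the read coverage of these stretches were not examined here.

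The longest gap of each chromosome had its own place. On chr02 it ran from 11324100 to 12345412, 1021 kb without an event, and it was preceded by a gap of 294 kb that began at 11030402 and ended at the single event centred at 11324100. The other long gap named on chr02 lay from 9685985 to 10090060 (404 kb), so the 3 longest gaps of chr02 stood within a stretch of 2.66 Mb. On chr15 the longest ran from 4343735 to 4821195 (477 kb), from 7233153 to 7641020 (408 kb) and from 13821782 to 14199299 (378 kb). On chr16 they ran from 3463523 to 4351125 (888 kb), from 10189836 to 10758544 (569 kb) and from 21193922 to 21650416 (456 kb). The gaps of chr16 were thus spread from the lower end of the chromosome, through its middle, to a place near its upper end.

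The second question was how events were laid out along each chromosome. Chr02 and chr15 leaned to opposite ends. On chr02, 815 of 1249 events (65.3%, 95% Wilson interval 62.6 to 67.8%) lay on the lower side of the midpoint of the span, the side of low coordinates. This was the highest such share of the 19 chromosomes. On chr15, 401 of 1166 events (34.4%, 31.7 to 37.2%) lay on the lower side, the lowest share of the 19. On chr16 the share was 42.6% (39.8 to 45.4%), at place 3 from the lowest. Among the other 16 chromosomes the share ran from 42.3% on chr14 to 64.4% on chr03, with a median of 59.8%. Which end of a chromosome has low coordinates is a convention of the assembly, so the side carries no meaning by itself.

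In densities, the lower side of chr02 held 86.5 events per Mb and the upper side 46.1, a ratio of 1.88 (exact interval 1.67 to 2.11). On chr15 the lower side held 39.6 and the upper side 75.6, so the upper side was 1.91 times as dense (1.69 to 2.16). On chr16 the values were 44.3 and 59.8, a ratio of upper to lower of 1.35 (1.20 to 1.51). Without gaps over 200 kb the lean of chr02 was 1.49 (1.32 to 1.68) and that of chr15 was 1.62 (1.43 to 1.83). For chr16 it was 1.07, with an interval of 0.958 to 1.21 that holds 1. Of its 13 long gaps, 9 began on the lower side. On chr15 this was so for 6 of 7, and on chr02 for 0 of 4. By construction, leaving out such gaps raises the density more on the side where they cover more.

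**Figure D2:**
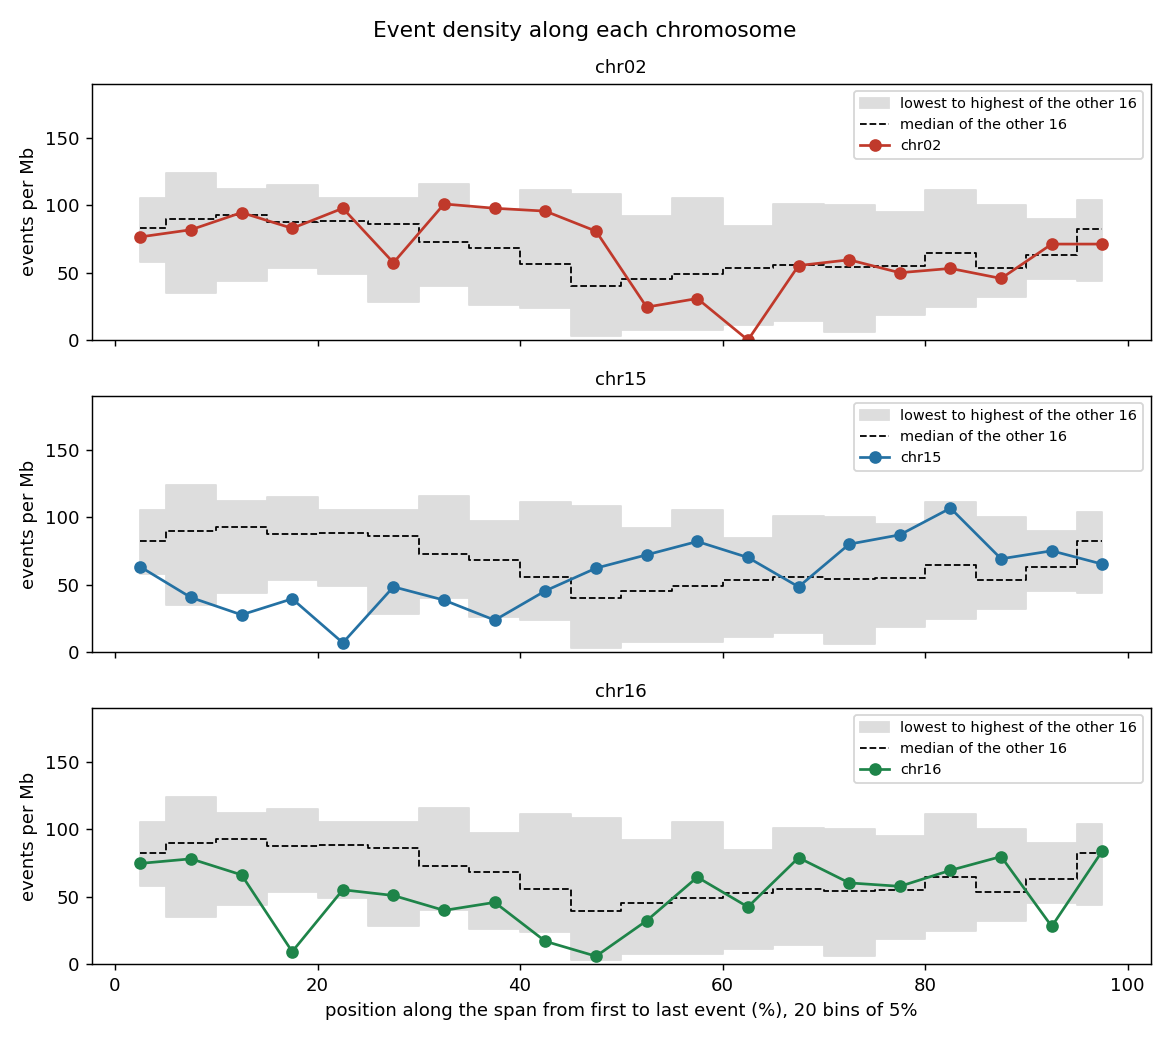
Events per Mb in 20 bins of 5% of the span on chr02, chr15 and chr16, with the lowest to highest value (grey) and the median (dashed) of the other 16 chromosomes. Chr02 is dense up to its midpoint and falls after it, chr15 is sparse at first and dense in its upper part, and chr16 dips near its midpoint and again near both ends.

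Cut into stretches of 25% of the span, chr02 held 86.6, 86.4, 34.0 and 58.2 events per Mb in order of position. The same stretches of chr15 held 35.6, 43.7, 70.5 and 80.6, each above the one before. In stretches of 10% the rise of chr15 was uneven, with 51.9 per Mb at the lower end, 27.7 in the third stretch, 87.9 in the ninth and 70.1 at the upper end. Those of chr16 held 56.7, 31.9, 55.7 and 63.8, with the low value in the stretch before the midpoint. The medians of the other 16 chromosomes were 89.3, 63.1, 46.5 and 65.5 per Mb, highest at the lower end and lowest after the midpoint. In the lowest 25% of the span, chr15 and chr16 lay below every one of the other 16, whose lowest value was 61.5. This depends on the end that is read, since in the highest 25% the lowest value of the other 16 was 46.3. The middle 33.3% of the span held 28.2% of the events of chr02 (25.8 to 30.7%), 34.7% of those of chr15 (32.1 to 37.5%) and 24.4% of those of chr16 (22.1 to 26.9%). The interval of chr15 lay above those of both others, but with the middle 50% of the span the intervals of chr15 (46.7 to 52.4%) and chr02 (42.7 to 48.2%) overlapped. Over the 20 bins the profiles of chr02 and chr15 ran against each other (Spearman's rho −0.82), and chr02 and chr16 gave −0.25 and chr15 and chr16 0.16. With 1 chromosome of each pair read from its other end, rho was 0.69 for chr02 and chr15, 0.45 for chr02 and chr16 and −0.34 for chr15 and chr16. These are descriptions over 20 bins that are not independent of their neighbours in position.

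Windows of 1 Mb show the extremes. The richest on chr02 were 7000001 to 8000000 with 105 events and 2000001 to 3000000 with 104. On chr15 they were 16000001 to 17000000 with 110 and 18000001 to 19000000 with 88. On chr16 the window from 2000001 to 3000000 held 86, and those from 1 to 1000000 and from 22000001 to 23000000 held 76 each. Windows with 100 events or more made up 9.80% of the 449 windows of the numbered chromosomes, and there were 3 of 18 on chr02, 1 of 20 on chr15 and 0 of 23 on chr16. At the other extreme, chr02 had 4 events from 11000001 to 12000000 and 30 in the next window. Chr15 had 6 from 4000001 to 5000000 and 20 from 7000001 to 8000000. Chr16 had 5 from 10000001 to 11000000 and 4 from 11000001 to 12000000, side by side. Windows with 30 events or fewer were 2 of 18 on chr02, 3 of 20 on chr15 and 5 of 23 on chr16, where 10.7% of all windows were this poor. The median window held 66.5 events on chr02, 62.5 on chr15 and 55 on chr16, compared with 68 on the other 16 chromosomes.

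The third question concerned spacing at short range. The median distance between neighbouring event centres was 6.77 kb on chr02, 7.70 kb on chr15 and 7.89 kb on chr16, compared with 7.04 kb on the other 16 together and a range of 6.24 to 8.27 kb among them. Chr02 and chr16 were thus closer in the median gap, at 1.17-fold, than in density, at 1.27-fold. Quartiles were 2.18 and 17.3 kb on chr02, 2.51 and 20.6 kb on chr15, and 2.34 and 19.7 kb on chr16. Gaps over 50 kb, including those over 200 kb, were 60 on chr02, 82 on chr15 and 86 on chr16. They took up 34.2, 40.8 and 47.6% of the spans in that order, compared with 35.1% on the other 16 together and 50.3% on chr09.

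Close neighbours were about as common as elsewhere. Over the numbered chromosomes, 28.3% of events had another event within 1000 bp. On chr02 this held for 371 of 1249 events (29.7%, 27.2 to 32.3%), on chr15 for 296 of 1166 (25.4%, 23.0 to 28.0%) and on chr16 for 349 of 1226 (28.5%, 26.0 to 31.1%). Together they gave 27.9% (26.5 to 29.4%), compared with 28.3% on the other 16 (27.8 to 28.9%), a difference within counting error. Chr02 ranked second of the 19 in this share and chr15 last, although their intervals overlap. Within 200 bp, where the windows that the list gives for events overlap, the shares were 9.93% on chr02, 8.83% on chr15 and 11.3% on chr16, with 10.6% over the numbered chromosomes.

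**Figure D3:**
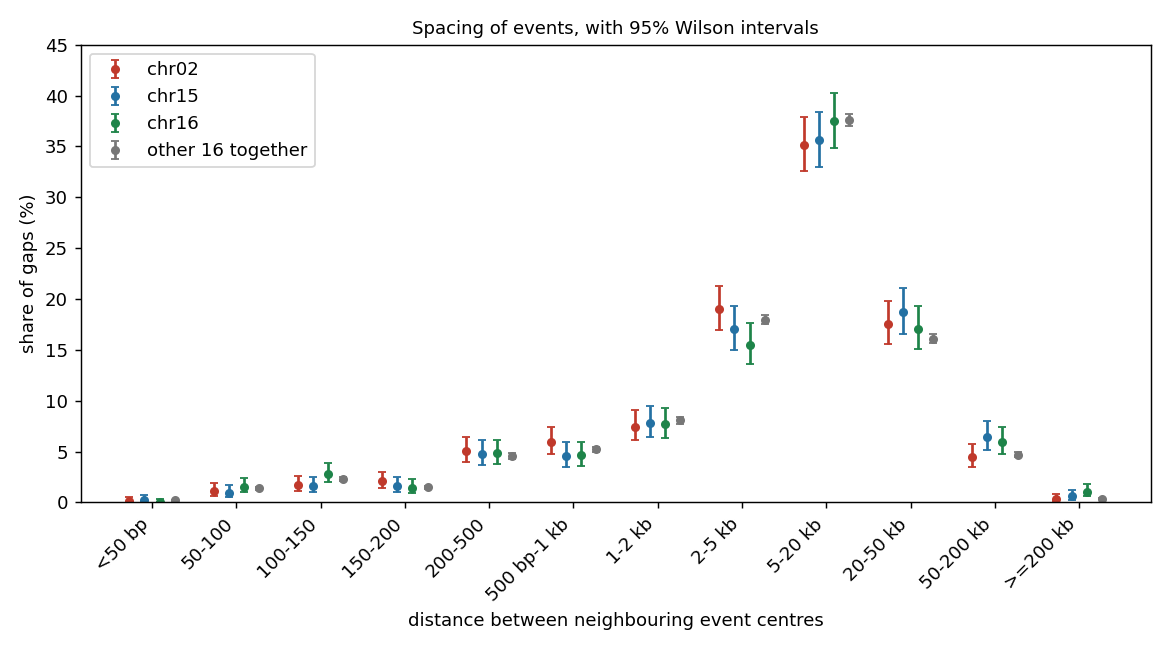
Share of gaps between neighbouring event centres by length class on chr02, chr15, chr16 and the other 16 chromosomes together, with 95% Wilson intervals for counting error. The classes up to 1 kb overlap between chromosomes, and chr16 has the largest share of gaps of 200 kb or more (1.06%, compared with 0.363% on the other 16).

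Pairs of neighbours at most 200 bp apart numbered 63 on chr02, 52 on chr15 and 71 on chr16. Their median distance was 137, 125.5 and 120 bp in that order. On chr16 the class from 100 to under 150 bp held 34 gaps (2.78%, 1.99 to 3.85%), whereas it held 21 on chr02 (1.68%, 1.10 to 2.56%) and 19 on chr15 (1.63%, 1.05 to 2.53%). These intervals overlap. Within a pair, stronger over weaker signal had a median ratio of 1.72 on chr02, 1.59 on chr15 and 1.66 on chr16, compared with 1.72 on the other 16 chromosomes. The closest centres were 23 bp apart on chr02 (15573988 and 15574011, signals 347.9 and 139.1), 34 bp on chr15 (11985855 and 11985889, signals 253.2 and 225.8) and 52 bp on chr16 (19102850 and 19102902, signals 279.8 and 368.2). Both members of each of these pairs were well above the median signal of their chromosome.

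When neighbours up to 1000 bp apart were joined, 61 groups held 3 or more events, 20 on chr02, 19 on chr15 and 22 on chr16. Per 1000 events this was 16.01, 16.3 and 17.9 groups, compared with 16.2 on the other 16 chromosomes. Groups of 4 or 5 were 7 on chr02, 5 on chr15 and 3 on chr16, among 3641 events, and none was larger. On the other 16 chromosomes there were 57 groups of 4, 11 of 5 and 3 larger, among 26195 events. Among the groups of 4 or 5 on the 3 chromosomes, the group with the highest signal held 5 events on chr02, between centres 7292875 and 7294758. Its signals of 74, 65, 380, 47.2 and 96.8 followed each other in position. A second group of 5 on chr02, from 7640469 to 7642967, was weak throughout, with signals between 27.2 and 71. Groups of 4 on chr02 lay from 7225282 to 7227412 and from 7364133 to 7365507, so that 4 of its 7 such groups stood within 418 kb. The other 3 ran from 1781780 to 1783157, from 4170194 to 4172011 and from 8547440 to 8549314, the last with a highest signal of 280.2.

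On chr15 the tightest group of 4 spanned 586 bp, from 986240 to 986826, with signals of 52.8, 50.1, 97.4 and 111.7. A pair of groups lay close together, from 16014952 to 16016396 and from 16056638 to 16058393, and differed in strength. The former had signals from 84.8 to 112.2, and the latter from 23.8 to 28.2, near the lowest value of the list. The remaining groups of chr15 ran from 10330775 to 10332072 (highest signal 159.2) and from 11048048 to 11049451 (55). On chr16 the groups of 4 lay from 2685229 to 2686680 (highest signal 100.5), from 17136324 to 17137155 (78.9) and from 20752626 to 20753793 (59).

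The last question was the signal value, which the authors' list gives for each event without a stated scale, with a lowest value of 22 on chr02, chr15 and chr16. Among the other 16 chromosomes the lowest value ran from 22 to 26, the latter on chr08, with a median of 22.05. Weak events thus entered the list unevenly. Typical signals differed little. The median was 47.9 on chr02 (interval by order statistics 45.4 to 50), 46.9 on chr15 (44.6 to 49) and 49.9 on chr16 (47.8 to 51.5). That of chr15 was the lowest of the 19, and the other 16 ran from 47.3 on chr05 to 52 on chr08. The 3 together had a median of 48, compared with 49.4 on the other 16, a ratio of 0.972. Of the events of chr02, chr15 and chr16, 6.57, 7.80 and 7.26% had a signal under 26, compared with 4.17% on the other 16. With 26 as the lowest signal for all chromosomes, the medians were 50.3, 50 and 52, compared with 51, and the ratio of the 3 together to the other 16 was 1 (0.975 to 1.02). The difference in median signal was thus not found at or above 26. This cut takes a larger share of events from the 3 chromosomes, which by construction moves the ratio toward 1. It cannot tell whether unequal lowest values made the difference. The density ratio of the 3 chromosomes to the other 16 was then 0.849 (0.819 to 0.880). Chr16, the sparsest of the trio, had the highest median, the highest 75th percentile (79.8, compared with 76 on chr02 and 74.9 on chr15) and the highest 95th percentile (194.8, 187 and 183.7). The intervals of the medians overlap.

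**Figure D4:**
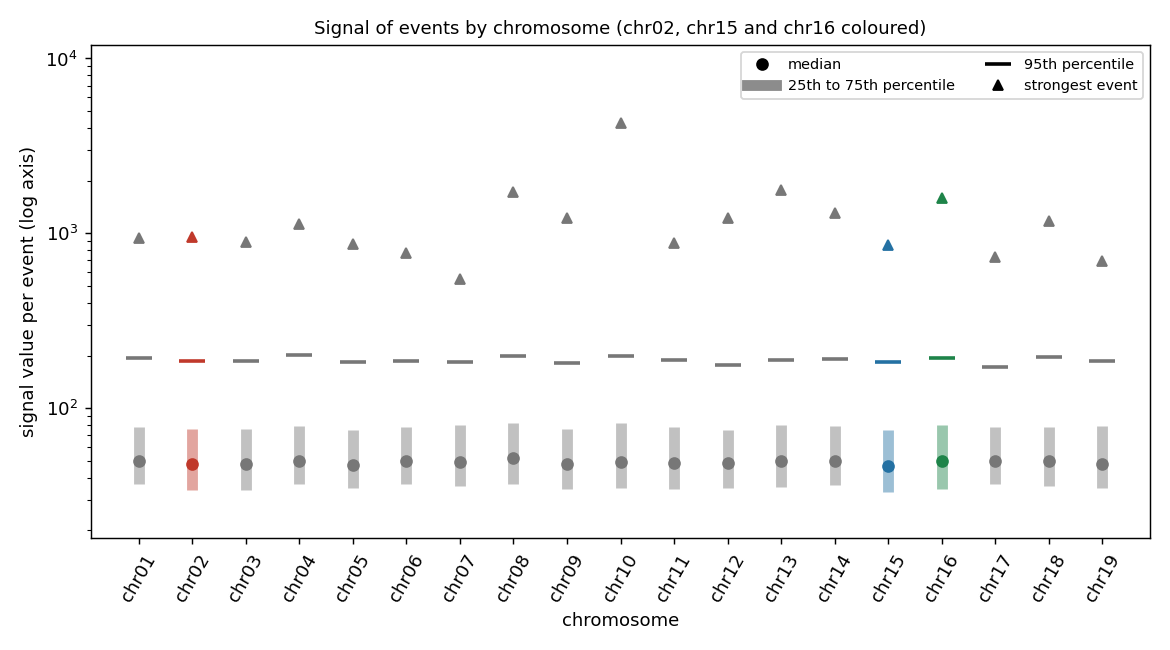
Signal value of events by chromosome on a log axis, as the median (points), 25th to 75th percentile (bars), 95th percentile (dashes) and strongest event (triangles). The medians of chr02, chr15 and chr16 were 47.9, 46.9 and 49.9, and their strongest events had signals of 959, 859 and 1594.

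Strong events, those in the top 5% of the numbered chromosomes with a signal of at least 189, numbered 184. They were 62 on chr02 (4.96%, 3.89 to 6.31%), 56 on chr15 (4.80%, 3.72 to 6.19%) and 66 on chr16 (5.38%, 4.25 to 6.79%), with 5.02% over all numbered chromosomes. In the top 1%, which 1.00% of events reached, were 7 on chr02 (0.560%, 0.272 to 1.15%), 14 on chr15 (1.20%, 0.717 to 2.01%) and 15 on chr16 (1.22%, 0.743 to 2.01%). The smaller number on chr02 was within counting error. Of the strong events, 88 of 184 (47.8%, 40.7 to 55.0%) had another event within 1000 bp, compared with 42.2% (39.5 to 44.9%) on the other 16 chromosomes. By chromosome the share was 58.1% on chr02 (45.7 to 69.5%), 39.3% on chr15 (27.6 to 52.4%) and 45.5% on chr16 (34.0 to 57.4%). Strong events were therefore more often near another than all events of these chromosomes were (27.9%).

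On each chromosome the denser side had the higher median signal. On the dense lower side of chr02 the median signal was 51.9 (48.1 to 54.6), and on the sparse upper side it was 41.8 (40 to 44.4). On chr15 the sparse lower side had 44.1 (41.6 to 47) and the dense upper side 49 (45 to 51). On chr16 the values were 47.5 (44.3 to 51) and 51 (48.3 to 54). The intervals were apart on chr02 only. Strong events were 44 and 18 on the lower and upper sides of chr02 (5.40 and 4.15% of the events there), 9 and 47 on chr15 (2.24 and 6.14%) and 24 and 42 on chr16 (4.60 and 5.97%). For chr15 the intervals of the shares, 1.19 to 4.21% and 4.65 to 8.07%, did not overlap. They treat events as independent, and the split at the midpoint was added after the values were seen. Strong events by side were not compared with those of the other 16 chromosomes. Over windows of 1 Mb with at least 20 events, the count and the median signal gave Spearman's rho 0.62 on chr02 (17 windows), 0.35 on chr15 (19) and 0.62 on chr16 (21). On the other 16 chromosomes rho ran from −0.24 to 0.78 (on chr03), had a median of 0.25 and was positive on 13. These are descriptions over windows of 1 list.

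By events per window, the share of strong events did not rise evenly on the 3 chromosomes, beside 5.02% over all numbered chromosomes. It was 7 among 179 (3.91%) in windows with 30 events or fewer, 30 among 932 (3.22%) with 31 to 60, 120 among 1970 (6.09%) with 61 to 90 and 23 among 421 (5.46%) with more than 90. On the other 16 chromosomes the same classes gave 4.39, 4.38, 4.99 and 5.58%. In the poorest windows, 3 of the 7 strong events lay on chr02 between 12000001 and 13000000. By distance to the nearest event, the median signal was 114.9 within 100 bp (98 events), 53.1 from there to 200 bp (268), 47.8 to 500 bp (339) and 53 to 1000 bp (311). Farther out it was 48 to 2000 bp (459), 47.7 to 5000 bp (845), 45.1 to 20000 bp (1079) and 41 beyond (242). The fall was thus not even. On the other 16 chromosomes the same 8 bands gave 86.2, 56.3, 47.4, 51, 50, 49, 47.1 and 43. Of the 98 events within 100 bp of another, 30.6% were strong, compared with 18.3% of 847 such events elsewhere. From there to 200 bp the order was turned, with 5.60% of 268 events compared with 7.23% of 1950. Both members of a close pair are counted here, so these events are not independent.

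The strongest event of the 3 chromosomes, on chr16 from 2791856 to 2792056, reached a signal of 1594. This was 31.9-fold the chr16 median and place 8 in the whole list. Its p was too small for the list to write. The next on chr16 were at 22222194 to 22222394 (692.5), 2123051 to 2123251 (663.3), 22223065 to 22223265 (613) and 22210705 to 22210905 (581). Of these 5, 3 stood within 13 kb of each other near 22.2 Mb, and the other 2 in the window from 2000001 to 3000000, the richest of chr16. That window held 10 strong events in all.

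On chr02 the strongest event lay from 6224900 to 6225100, and had a signal of 959.1 (20.02-fold the chromosome's median). It was followed by events at 17725166 to 17725366 (775), 588955 to 589155 (769), 14965339 to 14965539 (502.5) and 12769240 to 12769440 (490). Of these 5, 3 lay on the sparse upper side of chr02, the last of them 424 kb beyond the 1021 kb gap. On chr15 the strongest lay from 12100273 to 12100473, and had a signal of 859 (18.3-fold the median). The others were at 181110 to 181310 (614.9), 9950975 to 9951175 (577), 188389 to 188589 (550.7) and 12383300 to 12383500 (533.5). The events at 181110 and 188389 were each other's nearest neighbours, 7279 bp apart, on the sparse lower side, where 9 of 401 events were strong.

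The surroundings of the strongest events differed. That of chr15 stood alone, with its nearest event 25.4 kb away. That of chr02 had a weaker event of signal 64.9 at 178 bp, and another of 199.9 at 16386 bp on the same side. That of chr16 had events of 69.2 at 1689 bp and 105.8 at 2210 bp, and weaker ones of 26 to 38 farther out.

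**Figure D5:**
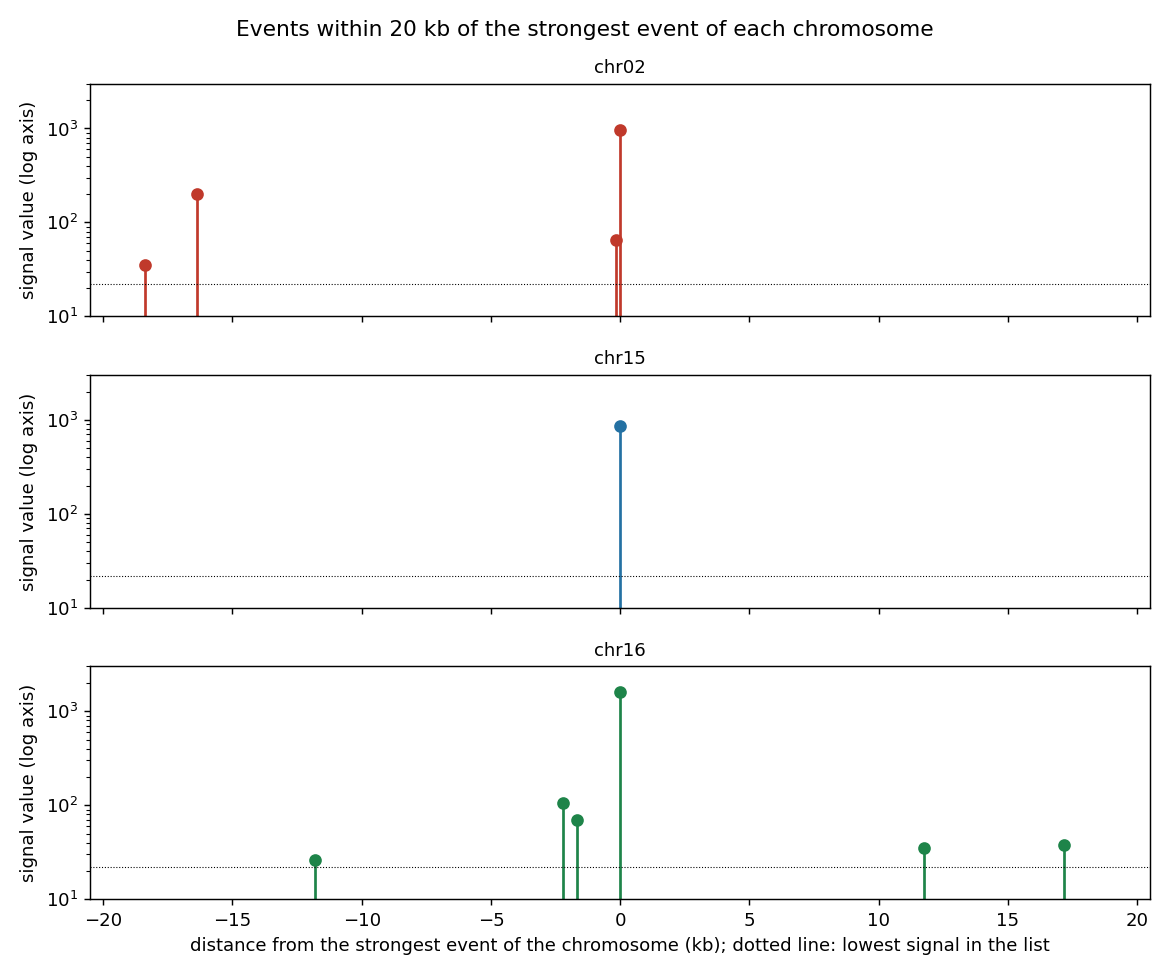
Signal value (log axis) of all events within 20 kb of the strongest event on chr02, chr15 and chr16, by distance from it. The strongest event of chr15 (859) has no other within this distance, whereas those of chr02 (959.1) and chr16 (1594) have weaker events near them.

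The place with 3 of the 5 strongest events of chr16 was looked at further after its values were seen. Between 22200001 and 22300000 there were 14 events, 4 of them strong, with signals of 358 at 22202028, 581 at 22210705, 692.5 at 22222194 and 613 at 22223065. The other 10 had signals from 37.4 to 84. Bins of 100 kb with any strong event numbered 129 on the 3 chromosomes and 995 on the other 16. Those with 4 or more strong events were 3, all on chr16, and 11. Bins with 3 or more were 2 on chr02, 3 on chr15, 4 on chr16 and 62 on the other 16. The most in a bin of the other 16 was 7. The other 2 bins of chr16 with 4 or more were 2200001 to 2300000 (15 events, highest signal 257.6) and 19200001 to 19300000 (16 events, highest 480). The cluster near 22.2 Mb followed a sparse stretch, since gaps of 456 and 419 kb ended at 21650416 and 22098997. Copy number and control reads at this place were not examined.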

How the data were processed

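The data were 1 narrowPeak list of MYBPA1 events. The submitters' processing notes name the tools fastp 0.21.0 and Bowtie2 2.0. The name of the list gives GEM as the event caller. Its version and settings, the control, the genome build and the way the 2 MYBPA1 libraries entered it are not stated there. Per the deposited list, each 201 bp event has a display score (a score not used further), a signal value and, on the −log10 scale, a p and a q, all made by the authors. The last never falls below 2.0 (q = 0.01). Decimal commas were read as decimal points. No library totals were used, so the depth is unknown.

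Centres are the middle base of an event, with position 1 the first base. Chromosome length was taken as the span between the first and last centre. Members were found by chromosome name. Members, measures and named regions were chosen with earlier results of these data known, and the split at the midpoint was added after the values were seen. Named by rule were, per chromosome, the 5 strongest events, groups of 4 or more, the 3 longest gaps, and the 2 richest and 2 poorest windows of 1 Mb. Values carry 95% intervals for counting error (exact Poisson for densities, exact conditional binomial for density ratios, Wilson for shares, order statistics for medians). There is 1 list and no replicate, so no p-value was computed and ranks among chromosomes carry no test. The planned counts of genes and motifs were not run, since the genome of this build was not used here. The density ratio after removal of close events was tested on simulated data, where its interval held the true ratio in 97% of 100 sets. Those sets had events spread evenly at random, some with a close partner. The events examined here were less even, so the share does not carry over to them. Tools were matplotlib 3.10.9, scipy 1.17.1, pandas 2.3.3 and numpy 2.4.6 under Python 3.11.15.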

Additional observations from a re-analysis of the deposited data

How the results depend on the processing

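Leaving gaps over 200 kb out of the span gave a density ratio of 0.932 for the 3 chromosomes against the other 16, 1.11 for chr02 to chr16 and 0.970 for chr15 to chr16, the last of which was reversed. It gave 1.49, 0.618 and 0.930 for the lower to the upper side of chr02, chr15 and chr16. By construction, this step raises density most where such gaps cover the largest share of the span. Adding chr00, the unplaced sequence, to the others gave 0.919. The lower to upper ratio of chr02 was 2.19 at −log10 q of at least 5 and 2.53 in the strongest 50% of events. The median signal ratio to the other 16 was 0.994 at that q and 1.01, reversed, in the strongest 50%, and 1 with a lowest signal of 26 on all chromosomes. All of these are lists cut on signal or on q that limit such a difference by construction. The share with a neighbour within 1000 bp was 22.8% at that q, 20.8% in the strongest 50%, 19.5% without events within 200 bp of a stronger one, and by construction 19.4% within 500 bp and 63.7% within 5000 bp. Likewise by construction, the middle 50% of the span held 45.4, 49.6 and 42.1% on chr02, chr15 and chr16, so that the intervals of chr15 and chr02 overlapped, and the top 1% and top 10% of signal held 0.989 and 9.89% of events. The other 43 values stayed within the counting interval of the value reported, but the interval of chr15 to chr16 held 1 at that q (1.05) and in the strongest 50% (1.03). The alternatives to the split at the midpoint and the common lowest signal were chosen after seeing the data. No paired analysis was possible because the examined values are not split by library, and for the same reason no replicate was left out. Depth is unknown, so weak sites may have been missed to an unknown extent.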

Other observations

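Events of like signal differed in p. Among 31 events of the 3 chromosomes whose signal was at least 150 and below 160, the median −log10 p was 34.4 (lowest 22.5, highest 45.5), and among 286 on the other 16 chromosomes it was 31.4 (15.4 and 47.9). Among the 184 strong events the lowest −log10 p was 25.1, on chr16 from 20874240 to 20874440 (signal 192). Among 1313 strong events on the other 16 it was 7.73, but a larger set reaches lower extremes more easily. The medians were close, at 63.1 and 61.3. In the list cut at −log10 q of at least 5 were 56.8% of the events of chr02, 56.6% of those of chr15 and 59.3% of those of chr16, with 58.5% over the numbered chromosomes. Signals of neighbouring events were correlated at up to 200 bp (Spearman's rho 0.39 over 186 pairs, a description of pairs whose windows overlap) and hardly from 5000 to 20000 bp (0.0042 over 1313 pairs).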
